A study of Mus musculus with 48 samples.

Results

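Elongases and desaturases of long-chain fatty acids were followed in the liver of DCA-exposed mice as 9 named genes. They are the elongases Elovl1, Elovl2, Elovl5 and Elovl6 and the desaturases Fads1, Fads2, Fads3, Scd1 and Scd2. The choice was by gene symbol, with no threshold on a measured value, but with earlier results of these data known. Elovl3, an elongase that decreased with DCA, is not among the 9. The FROZ (frozen) table lists 8 of them among 11275 genes, all but Fads3, and the FFPE (formalin-fixed, paraffin-embedded) table lists 7 among 6673 genes, all but Fads3 and Scd2. Over both tables together the 9 names stand against 11353 genes.

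Male B6C3F1 mice, a hybrid strain common in rodent bioassays, were 4 weeks old when they drank water holding 0, 1, 2 or 3.5 g/L of dichloroacetic acid (DCA) for 6 days, which came to 198, 313 or 427 mg/kg-d in the exposed groups. DCA is a by-product of water disinfection that inhibits pyruvate dehydrogenase kinase. Each dose had 6 mice, and each of the 24 mice gave a FROZ library from mixed lobes (left lateral, caudate and right medial) and an FFPE library from the left lateral and right medial lobes, so that preservation and lobe cannot be told apart. The labels name no transgene or engineered allele, and all groups shared the strain, sex, age and 1994 collection. Expression was measured by TempO-Seq, in which pairs of detector oligos ligated on a transcript are amplified and counted.

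FROZ libraries held 6.69 to 9.84 M reads on listed genes and FFPE libraries 1.83 to 6.01 M, so that 1 read stood for 0.102 to 0.150 CPM in FROZ and 0.166 to 0.546 CPM in FFPE. In FROZ 12 to 61 genes were at 0 per library, against 65 to 1580 in FFPE, and the highest counts of such genes were those of mouse 49 at 198 mg/kg-d and mouse 73 at 313 mg/kg-d. Hepatocyte markers were listed for 6 of 6 genes in FROZ and 5 of 6 in FFPE. Limits of low counts cover counting error only. The intervals given with changes come from fits over libraries of separate mice and so include the spread between mice. Levels below are log2(CPM + 1), on which fold changes of low genes are understated, and the probes differ between genes, so levels are compared between samples of a gene and not between genes.

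Liver builds palmitate and then reshapes it in the endoplasmic reticulum. Elongases of the Elovl family add carbon units in the condensation step of the elongation cycle, and desaturases insert double bonds with electrons from cytochrome b5. Scd1 and Elovl6 act on saturated and monounsaturated chains made by the liver itself, while Fads2, Elovl5, Fads1 and Elovl2 act in turn on the essential dietary acids to make arachidonic and docosahexaenoic acid. In liver the transcription factors SREBP-1c, LXR and PPAR alpha are well known regulators of these genes.

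Changes with DCA passed the test for 4 of the 9 genes. Scd1, Elovl6 and Elovl5 rose more than the fold change threshold in FROZ at 313 and 427 mg/kg-d, Fads2 rose in FROZ by less than that threshold, and Elovl1, Elovl2, Fads1 and Scd2 did not pass the test at any dose. DEGs were called by limma where the FDR was under 0.05 and the fold change over 2. In FROZ this gave 0, 3 and 3 of 8 members at the rising doses, all increased, beside 0.106, 2.31 and 3.5% of all genes (0.0443, 1.43 and 2.26% for increases alone). In FFPE it gave 0 of 7, 1 of 7 (Scd1) and 3 of 7 (Scd1, Elovl6 and Fads2), also all increased, beside 0.0599, 0.809 and 1.81% of all genes (0.03, 0.584 and 1.23% for increases alone). At an FDR under 0.05 alone, 4 of 8 members passed in FROZ at 313 and at 427 mg/kg-d, where 26.7 and 30.1% of all genes did, and 2 and 3 of 7 passed in FFPE, where 1.08 and 2.41% did. The median log2 change over the listed members at 313 and 427 mg/kg-d was 0.36 and 0.55 in FROZ, against 0.11 and 0.10 over all genes, and 0.94 and 1.16 in FFPE, against -0.12 and 0.18. Bulk liver was measured, so that a change in RNA per cell and a change in the share of a cell type cannot be told apart.

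**Figure D1:**
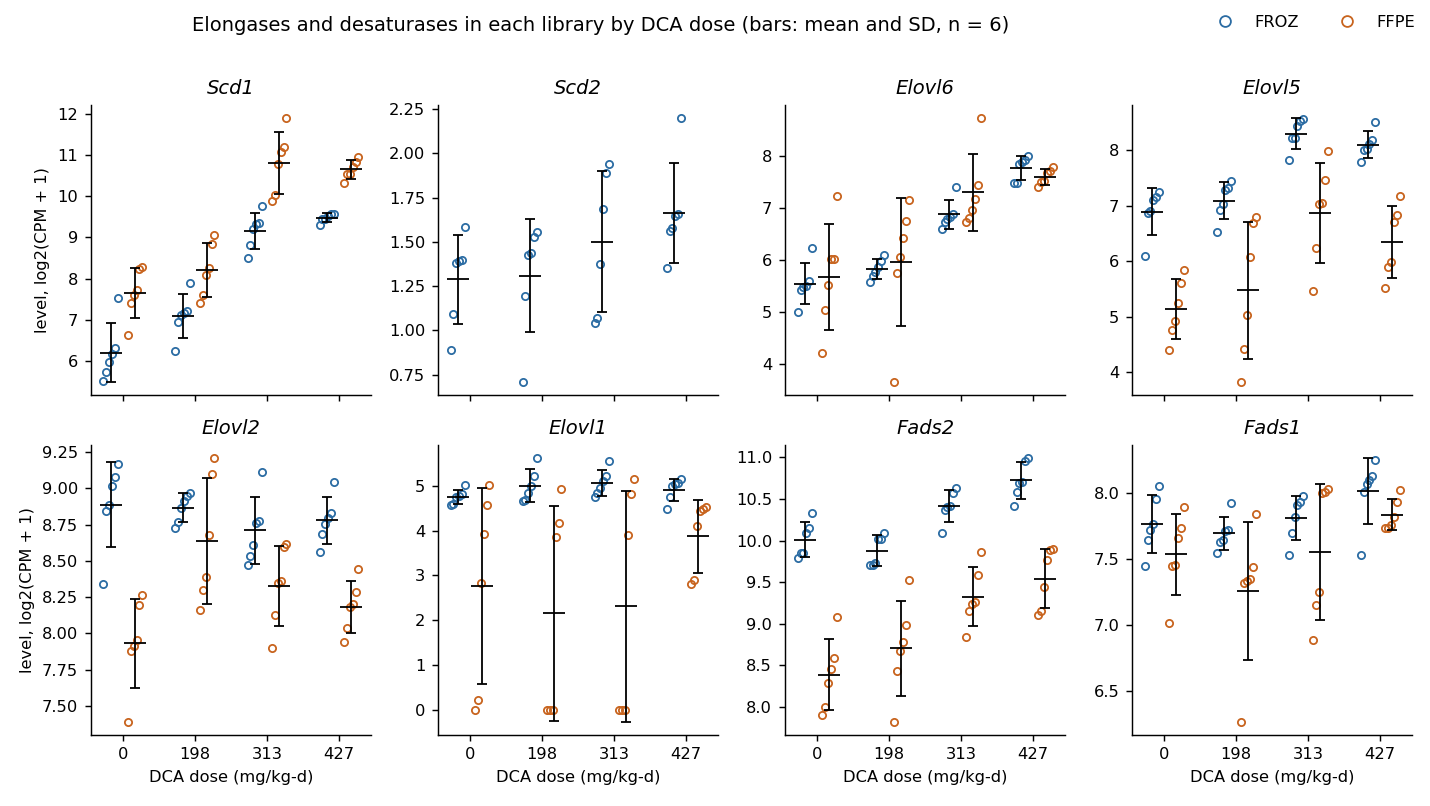
Level of each member in each library, in log2(CPM + 1) on an axis of its own per gene, against DCA dose in mg/kg-d, with FROZ libraries in blue and FFPE libraries in orange; bars give the mean and SD of 6 mice. Scd1 moves from 5.52 to 7.52 in FROZ controls to 9.29 to 9.58 at 427 mg/kg-d, while Elovl2 stays between 8.34 and 9.17 in FROZ, and 7 FFPE libraries lie at 0 for Elovl1.

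Scd1 (stearoyl-CoA desaturase, chr19:44394455-44407879, minus strand, GRCm38), the enzyme that turns palmitate and stearate into palmitoleate and oleate, changed most of the members. In FROZ its level was lowest at 5.52, median 6.06 and highest 7.52 in controls, then 6.23, 7.14 and 7.88 at 198 mg/kg-d, 8.50, 9.26 and 9.75 at 313 mg/kg-d and 9.29, 9.50 and 9.58 at 427 mg/kg-d. The libraries of 313 and 427 mg/kg-d were all above every control, as for 9.14 and 11.4% of all genes. They were also above every 198 mg/kg-d library, which at 313 mg/kg-d held for 3.16% of all genes. The control of mouse 7 stood above 5 of the 6 libraries at 198 mg/kg-d. In CPM the range was 44.7 to 182 in controls and 625 to 763 at 427 mg/kg-d. Scd1 rose by 2.96 ± 0.25 (SE) on the log2 scale at 313 mg/kg-d (7.76-fold, FDR = 5.1e-09) and by 3.28 ± 0.25 at 427 mg/kg-d (9.73-fold, FDR = 1.8e-10), the 12th and 16th highest changes of 11275 genes. At 198 mg/kg-d the change was 0.89 ± 0.25 (95% interval 0.37 to 1.41, FDR = 0.0653), which missed the threshold. That call turned with single animals, as it was a DEG without control mouse 7 (log2 change 1.16, FDR = 0.0058) and without mouse 49 of that dose (1.07, FDR = 0.0311).

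In FFPE the Scd1 groups of the upper doses also stood apart from the lower ones, with the highest median at 313 mg/kg-d. The lowest, median and highest levels were 6.62, 7.65 and 8.29 in controls, 7.42, 8.17 and 9.05 at 198 mg/kg-d, 9.90, 10.93 and 11.90 at 313 mg/kg-d and 10.31, 10.64 and 10.97 at 427 mg/kg-d. Again the libraries of the upper 2 doses were above all controls, as for 0.959 and 2.94% of all genes. All 313 mg/kg-d libraries were above those of 198 mg/kg-d, as for 0.435% of all genes. The changes were 0.56 ± 0.30 (FDR = 0.467), 3.17 ± 0.30 (FDR = 3.1e-08) and 3.01 ± 0.30 (8.05-fold, FDR = 2.1e-08), and at 313 mg/kg-d Scd1 had the second lowest p of the 6673 genes. Without mouse 73 the change at 313 mg/kg-d was 3.09 (FDR = 2.3e-07). The step from 198 to 313 mg/kg-d was 2.06 ± 0.25 in FROZ and 2.61 ± 0.30 in FFPE, a DEG in both, as were 1.37 and 0.794% of all genes. The step from 313 to 427 mg/kg-d was 0.33 (95% interval -0.19 to 0.85) in FROZ and -0.16 (-0.78 to 0.46) in FFPE and did not pass. In both tables the spread narrowed at the highest dose, with an SD of 0.71, 0.53, 0.44 and 0.11 over the rising doses in FROZ and 0.61, 0.65, 0.76 and 0.24 in FFPE. Spread was not tested. The study attenuated the Scd1 probe in the assay, so its CPM understate its share of the transcripts by a factor common to all libraries.

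Scd2, a desaturase known chiefly from brain and early life, lies in the same gene cluster as Scd1 (chr19:44293674-44306864, plus strand). It was near the limit of detection, with 0.636 to 3.59 CPM or 5 to 32 reads per FROZ library, and its medians were 1.39, 1.43, 1.53 and 1.61 on the log2 scale over the rising doses. The groups overlapped throughout, and the change at 427 mg/kg-d was 0.38 ± 0.18 (95% interval 0.01 to 0.74, FDR = 0.115). Of the 50-base windows of its transcripts, 3.97% also occur in another gene, most often Scd1, and 4.56% of those of Scd1 do, most often Scd3, so that probe reads of the family could in part be shared.

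Elovl6 (chr3:129532355-129638495, plus strand), which lengthens palmitate and palmitoleate, rose in steps with dose. In FROZ the lowest, median and highest levels were 5.01, 5.49 and 6.23 in controls, 5.59, 5.81 and 6.09 at 198 mg/kg-d, 6.60, 6.81 and 7.41 at 313 mg/kg-d and 7.48, 7.87 and 8.00 at 427 mg/kg-d. Controls and 198 mg/kg-d overlapped, whereas the 313 mg/kg-d libraries were all above both and the 427 mg/kg-d libraries were all above those of 313 mg/kg-d. Each such step was seen for 3.16 and 1.25% of all genes, and 9.14% lay wholly above controls at 313 mg/kg-d. The changes against controls were 0.29 ± 0.15 (FDR = 0.328), 1.33 ± 0.15 (2.52-fold, FDR = 2.8e-07) and 2.23 ± 0.15 (4.68-fold, FDR = 1.4e-11). Elovl6 was the only member whose step from 313 to 427 mg/kg-d passed an FDR of 0.05 in FROZ, at 0.89 ± 0.15 (1.86-fold, FDR = 0.00092), as did 3.07% of all genes. The step from 198 to 313 mg/kg-d was 1.05 ± 0.15, a DEG as deposited. It fell just under the fold threshold when libraries were scaled by the median ratio (0.997) and without mouse 49 (0.999) or mouse 76 (0.94).

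In FFPE the Elovl6 spread was wider below the highest dose. Levels were 4.22, 5.77 and 7.24 in controls, 3.66, 6.24 and 7.15 at 198 mg/kg-d, 6.73, 7.06 and 8.72 at 313 mg/kg-d and 7.40, 7.60 and 7.78 at 427 mg/kg-d. Of 6 libraries each, 2 at 313 mg/kg-d and 6 at 427 mg/kg-d were above all controls. At 427 mg/kg-d 2.94% of all genes lay wholly above controls. The SD was 1.02, 1.23, 0.74 and 0.15 over the rising doses. The change was 1.63 ± 0.47 at 313 mg/kg-d (FDR = 0.0914) and 1.92 ± 0.47 at 427 mg/kg-d (3.79-fold, FDR = 0.0156). Mouse 4 was the highest control in both tables, and without it the FFPE change at 313 mg/kg-d became a DEG (1.94, FDR = 0.0266), while without mouse 73 it was 1.35 (FDR = 0.232). The call at 427 mg/kg-d was lost without control mouse 6 (1.63, FDR = 0.0622). Of the 50-base windows of Elovl6, 3.98% occur in another gene, most often Gm11295.

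Elovl5 (chr9:77917364-77984519, plus strand), an elongase of polyunsaturated chains, rose between 198 and 313 mg/kg-d, and no further change passed beyond. In FROZ the lowest, median and highest levels were 6.09, 7.00 and 7.24 in controls, 6.53, 7.15 and 7.44 at 198 mg/kg-d, 7.83, 8.33 and 8.57 at 313 mg/kg-d and 7.79, 8.07 and 8.51 at 427 mg/kg-d. Both upper doses lay above all controls and all 198 mg/kg-d libraries and overlapped each other. Of all genes, 9.14 and 11.4% lay wholly above controls at these doses, and 3.16% did so at 313 against 198 mg/kg-d. The changes against controls were 0.20 ± 0.17 (FDR = 0.594), 1.41 ± 0.17 (2.66-fold, FDR = 7.9e-07) and 1.21 ± 0.17 (2.32-fold, FDR = 3.5e-06). From 198 to 313 mg/kg-d the step was 1.21 ± 0.17 (FDR = 2.3e-05), and from 313 to 427 mg/kg-d it was -0.20 (95% interval -0.54 to 0.15). Without the lowest control, mouse 8, the changes at 313 and 427 mg/kg-d were 1.25 and 1.05 and stayed DEGs.

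FFPE levels of Elovl5 were 4.41, 5.09 and 5.85 in controls, 3.83, 5.55 and 6.79 at 198 mg/kg-d, 5.47, 7.04 and 7.99 at 313 mg/kg-d and 5.52, 6.34 and 7.18 at 427 mg/kg-d. At each upper dose 5 of 6 libraries were above all controls and the remaining library overlapped them. The changes were 1.74 ± 0.49 (FDR = 0.0858) and 1.22 ± 0.49 (FDR = 0.337), close in size to FROZ with wider intervals (0.74 to 2.74 and 0.22 to 2.22), and neither was a DEG. Limma with array quality weights made both of them DEGs, with FDR = 0.037 and 0.0025, and so did leaving out mouse 74 at 313 mg/kg-d (2.02, FDR = 0.031) and using only the 12 libraries compared at 427 mg/kg-d (1.22, FDR = 0.0332).

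**Figure D2:**
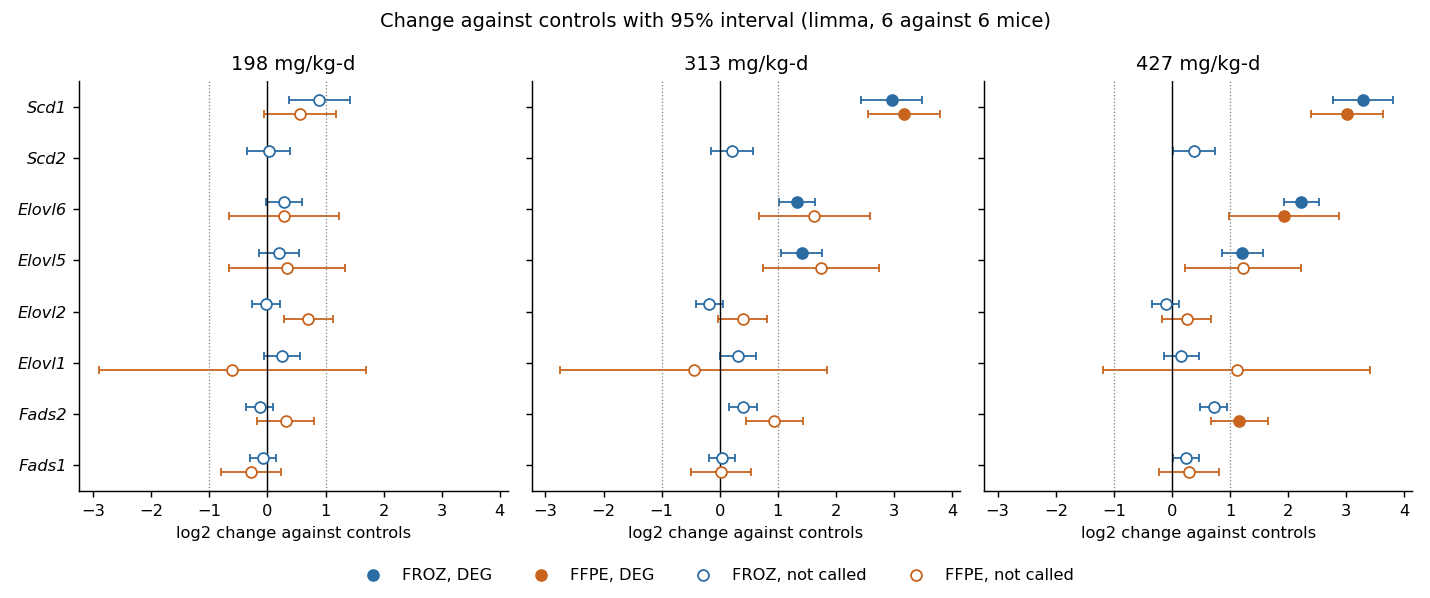
Log2 change of each member against controls with its 95% interval (limma), 1 panel per dose, FROZ in blue and FFPE in orange; filled points are DEGs (FDR under 0.05 and fold change above 2) and dotted lines mark a log2 change of 1 in either direction. Elovl5 has nearly the same estimate in both tables at 427 mg/kg-d (1.21 and 1.22) but a wider interval in FFPE, and Scd1 lies near 3 at both upper doses in both tables.

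Elovl5 and Elovl6 are the DEGs of FROZ with an entry among the RefSeq promoters (GRCm38.p6), and the stretches before their starts are printed for that reason. Of the 9 members 6 matched an entry (Elovl1, Elovl2, Elovl5, Elovl6, Fads2 and Fads3). Both are given 5′ to 3′ on the plus strand and end before the GENCODE start of the gene, with capitals for any motif found. The Elovl5 stretch is chr9:77917115-77917363 and the Elovl6 stretch chr3:129532136-129532354.
Elovl5: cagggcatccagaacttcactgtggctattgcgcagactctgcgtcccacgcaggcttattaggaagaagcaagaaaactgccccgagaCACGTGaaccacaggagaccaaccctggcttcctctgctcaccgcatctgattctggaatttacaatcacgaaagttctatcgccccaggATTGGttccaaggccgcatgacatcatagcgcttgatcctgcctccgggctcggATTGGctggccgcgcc
Elovl6: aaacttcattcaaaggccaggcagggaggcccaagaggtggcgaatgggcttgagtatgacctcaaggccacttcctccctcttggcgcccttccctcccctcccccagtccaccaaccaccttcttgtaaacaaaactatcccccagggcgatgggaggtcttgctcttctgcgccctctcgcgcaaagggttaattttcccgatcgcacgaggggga
The 250 bases before each RefSeq start were searched on both strands for a sterol regulatory element (TCACNCCAC), for an E-box (spelt CACGTG), for a CCAAT box and for direct repeats of the nuclear receptor site AGGTCA with a spacer of 1 or 4 bases. Elovl5 held 1 E-box, beginning at -161 from the RefSeq start, and 2 CCAAT boxes, both on the minus strand and so written ATTGG, and Elovl6 held none of the motifs. No match overlapped another. Of the other members with an entry, Elovl1, which did not pass, held 1 CCAAT box in 1 of its entries. Fads3, listed in neither table, held 2 CCAAT boxes, and Elovl2 and Fads2 held none of the motifs. Over all 32851 promoters of this length, an E-box was found in 6.02%, a CCAAT box in 33.8%, the sterol regulatory element in 1.05% and the direct repeats in 0.0335 and 0.0152%. A match describes these letters only.

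Fads2 (chr19:10062765-10101746, minus strand), which carries out the rate-limiting desaturation of linoleic and alpha-linolenic acid, rose modestly. In FROZ the lowest, median and highest levels were 9.80, 9.97 and 10.34 in controls, 9.70, 9.87 and 10.09 at 198 mg/kg-d, 10.09, 10.41 and 10.64 at 313 mg/kg-d and 10.41, 10.70 and 10.99 at 427 mg/kg-d. Of 6 libraries each, 5 at 313 mg/kg-d and 6 at 427 mg/kg-d were above all controls, as were all libraries at the highest dose for 11.4% of all genes. The change was -0.13 ± 0.12 at 198 mg/kg-d (FDR = 0.593), 0.40 ± 0.12 at 313 mg/kg-d (1.32-fold, FDR = 0.011) and 0.71 ± 0.12 at 427 mg/kg-d (1.64-fold, FDR = 2.7e-05), below the fold threshold for a DEG. Relative to the median of all genes, which itself lay 0.11 above controls at 313 mg/kg-d, the increase was smaller. Under median-ratio scaling, which takes that shift out, Fads2 no longer passed at 313 mg/kg-d (0.26, FDR = 0.116) and did at 427 mg/kg-d (0.57, FDR = 0.00058).

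In FFPE Fads2 levels were 7.91, 8.37 and 9.08 in controls, 7.82, 8.72 and 9.53 at 198 mg/kg-d, 8.85, 9.25 and 9.86 at 313 mg/kg-d and 9.11, 9.61 and 9.89 at 427 mg/kg-d. The 6 libraries at 427 mg/kg-d were all above the highest control, as for 2.94% of all genes, by a narrow margin of 9.11 against 9.08. Fads2 changed by 0.94 ± 0.24 at 313 mg/kg-d (1.91-fold, FDR = 0.046) and was a DEG at 427 mg/kg-d (1.16 ± 0.24, 2.23-fold, FDR = 0.0034). The FDR at 313 mg/kg-d varied with single mice, ranging from 0.0173 to 0.146 as each was left out and exceeding 0.05 in 10 of 12 cases (0.0633 without mouse 73, 0.128 without control mouse 8). It was 0.196 without a trended prior. Fads2 became a DEG there without control mouse 3 (1.07, FDR = 0.0173) or mouse 78 (1.03, FDR = 0.0215).

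Fads1 (chr19:10182888-10196877, plus strand), the desaturase of the later step that gives arachidonic acid, lies in the same gene cluster as Fads2 and did not pass at any dose. Its FROZ medians were 7.74, 7.67, 7.86 and 8.08 over the rising doses, within a range of 7.44 to 8.25, and the groups overlapped at every dose. The change at 427 mg/kg-d was 0.25 ± 0.11 (95% interval 0.02 to 0.47, FDR = 0.0875) in FROZ and 0.30 ± 0.25 (-0.22 to 0.82, FDR = 0.971) in FFPE. Fads3 (chr19:10041569-10060110, plus strand), a desaturase of sphingoid bases in the same cluster, is not listed in either table.

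Elovl2 (chr13:41182381-41220405, minus strand), which lengthens the polyunsaturated precursors of docosahexaenoic acid, did not pass in FROZ as deposited. Its lowest, median and highest levels were 8.34, 8.95 and 9.17 in controls, 8.72, 8.89 and 8.97 at 198 mg/kg-d, 8.47, 8.69 and 9.11 at 313 mg/kg-d and 8.56, 8.78 and 9.05 at 427 mg/kg-d, and all groups overlapped. The changes were -0.02, -0.18 and -0.11, with 95% intervals inside -0.42 and 0.21. Relative to the median of all genes the direction was the same, and under median-ratio scaling the change at 313 mg/kg-d was -0.32 (FDR = 0.0424), below the fold threshold. Without control mouse 8, the lowest control, it was -0.29 (FDR = 0.0369). In FFPE the levels were 7.39, 7.93 and 8.26 in controls, 8.16, 8.53 and 9.21 at 198 mg/kg-d, 7.90, 8.35 and 8.62 at 313 mg/kg-d and 7.94, 8.19 and 8.45 at 427 mg/kg-d. Of the 6 libraries at 198 mg/kg-d 5 were above all controls, but the change of 0.71 ± 0.21 did not pass over all genes (FDR = 0.223), nor did it without mouse 49 (0.77, FDR = 0.205).

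Elovl1 (chr4:118428093-118432953, plus strand), which makes the very long saturated and monounsaturated chains of ceramides, did not pass in either table. FROZ medians were 4.75, 4.92, 5.02 and 5.01 over the rising doses and the groups overlapped, with changes of 0.25, 0.32 and 0.16 (FDR = 0.404, 0.12 and 0.459). In FFPE it was read unevenly. Of 6 libraries per dose 1, 3, 3 and 0 were at 0, while the highest libraries reached 5.01, 4.93, 5.15 and 4.52, so the intervals of its changes spanned more than 4 log2 units and none passed. The libraries at 0 held 2.78 to 4.63 M reads on listed genes, all below the FFPE median of 4.71 M. Not every library below that median was at 0. Mouse 4 had 141 reads of 4.53 M, and mouse 49, the shallowest, had 54 of 1.83 M. Control mouse 7, above that median with 5.82 M reads, had 1 read of Elovl1. The part of depth in the zeros was not tested. By counting error alone, a count of 0 in a library allows up to 3 reads, and this limit does not cover the uneven reading described above.

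A slope on dose was fitted over all 24 libraries of a table, in log2 units per 100 mg/kg-d. In FROZ 4 of 8 members passed an FDR of 0.05, as did 32.2% of all genes. The slopes were 0.84 ± 0.07 for Scd1, 0.53 ± 0.05 for Elovl6, 0.34 ± 0.05 for Elovl5 and 0.17 ± 0.03 for Fads2. In FFPE 3 of 7 passed, beside 2.17% of all genes, with 0.81 ± 0.10 for Scd1, 0.49 ± 0.11 for Elovl6 and 0.29 ± 0.05 for Fads2. Elovl5 had 0.36 ± 0.12 in FFPE (FDR = 0.126), near its FROZ slope in size. Its mean level was no higher at 427 than at 313 mg/kg-d in either table.

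Whether FFPE and FROZ differed in the response was tested on each mouse's FFPE level less its FROZ level, with CPM rescaled over the 6591 genes of both tables. No member passed at an FDR of 0.05 at any dose, where 2, 0 and 2 genes (0.0303, 0 and 0.0303%) did at the rising doses, while the genes with an unadjusted p under 0.05 numbered 750, 491 and 147. For Scd1 the response in FFPE minus that in FROZ was -0.33 (95% interval -0.93 to 0.26), 0.21 (-0.39 to 0.80) and -0.28 (-0.87 to 0.31) over the doses. For Fads2, a DEG at 427 mg/kg-d in FFPE alone, the difference there was 0.44 (-0.16 to 1.04, FDR = 1.00), so the tables were not shown to differ. Elovl2 had the lowest p of the members, with 0.73 (0.26 to 1.20, FDR = 0.313) at 198 mg/kg-d, and 0.56 (0.09 to 1.04, FDR = 0.627) at 313 mg/kg-d. At those doses the median difference over all genes was -0.27 and -0.22.

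Differences between mice of the same dose were shared by the FROZ and FFPE libraries for some members. Deviations from the dose mean were correlated over the 24 mice with 100000 permutations within doses (two-sided, 7 members tested). For Scd1 r was 0.696 (permutation p = 0.00156, adjusted p = 0.00546), Spearman's coefficient was 0.629 (permutation p = 0.0042, adjusted p = 0.019) and r without the 2 mice farthest on the FROZ axis was 0.673. For Elovl2 r was 0.604 (permutation p = 0.00125, adjusted p = 0.00546), Spearman's coefficient was 0.571 (permutation p = 0.00543, adjusted p = 0.019) and r without those 2 mice was 0.474. Fads2 had r 0.439 (permutation p = 0.0412, adjusted p = 0.0962) and a Spearman coefficient of 0.502 (adjusted p = 0.0478), and 0.289 without the 2 mice. Elovl6 (r 0.385, adjusted permutation p = 0.155), Elovl1 (0.129), Fads1 (-0.00748) and Elovl5 (-0.0461) did not pass. Control mouse 8 was the lowest control in both tables for Scd1, Elovl5, Elovl2 and Fads1.

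**Figure D3:**
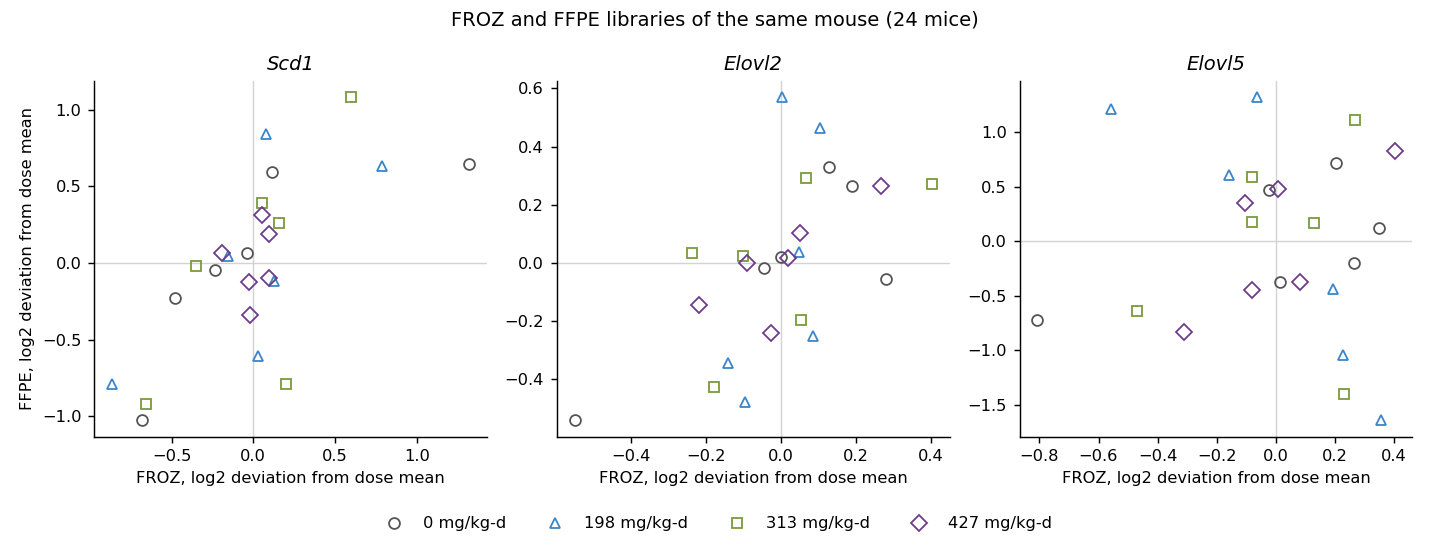
Deviation from the dose mean in the FFPE library (vertical axis) against that in the FROZ library (horizontal axis) of the same mouse, in log2 units, for Scd1, Elovl2 and Elovl5, with 1 symbol per dose and 24 mice per panel. Scd1 (r 0.696) and Elovl2 (r 0.604) rise from lower left to upper right, and Elovl5 (r -0.0461) shows no such line.

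Among the 28 pairs of members in FROZ, no correlation of deviations passed after adjustment. The highest was Elovl5 with Scd1, with r 0.698 (permutation p = 0.00328, adjusted p = 0.0918), a Spearman coefficient of 0.56 (adjusted p = 0.0714) and r 0.574 without the 2 farthest mice. Fads1 with Fads2, neighbours on the chromosome, had a Spearman correlation of 0.592 (adjusted permutation p = 0.0714, r 0.478), and Elovl6 with Scd1 had 0.534 (adjusted permutation p = 0.0714, r 0.432).

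For the 3 DEGs of FROZ, the genes most alike over the 24 FROZ libraries were sought among the 5874 genes that averaged 10 CPM or more, as a description that includes the dose effect all share. Scd1 was most like Dbi (r 0.956, and 0.470 for deviations from dose means), which encodes the acyl-CoA binding protein, then 4930402H24Rik (0.950 and 0.623) and Mttp (0.946 and 0.596), the microsomal triglyceride transfer protein. Elovl6 was most like Ddhd2 (0.953 and 0.388), a phospholipase and triglyceride lipase, then Acaca (0.953 and 0.854), the acetyl-CoA carboxylase of fatty acid synthesis, and Lacc1 (0.946 and 0.494). Elovl5 was most like Atp5g3 (0.928 and 0.724), a subunit of ATP synthase, then Scd1 (0.928 and 0.698) and Aldh1a7 (0.922 and 0.575).

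Around the members, the pathway was read by lists of genes. Of 8 other elongases and desaturases 3 are listed, and Elovl3, an elongase of very long saturated and monounsaturated chains, moved opposite to the DEGs named above. It decreased by 1.65 ± 0.26 at 313 mg/kg-d (FDR = 3e-05) and by 2.75 ± 0.26 at 427 mg/kg-d (FDR = 6.4e-09) in FROZ, and by 1.99 and 2.68 in FFPE (FDR = 0.0038 and 2.8e-05), with 6 of 6 libraries below all controls each time. Decreased DEGs at these doses made up 0.887 and 1.24% of all genes in FROZ and 0.225 and 0.584% in FFPE, and 2.39 and 3.27% of genes in FROZ and 0.614 and 1.54% in FFPE had all libraries below the controls. Degs1 and Fads6 did not pass as deposited, and Degs1 at 313 mg/kg-d in FROZ did under median-ratio scaling (-0.23, FDR = 0.0106).

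The remaining steps of the elongation cycle held no DEG. Of 6 genes (Hsd17b12, Hacd1, Hacd2, Hacd3, Hacd4 and Tecr), all listed in FROZ, 4 increases passed an FDR of 0.05 at 313 mg/kg-d and 2 at 427 mg/kg-d, beside 20.5 and 22.7% of all genes increased at that FDR. Hacd1, a dehydratase of the cycle, changed by 0.78 and 0.68 (FDR = 2.2e-05 and 7.1e-05), and Hsd17b12, the ketoacyl reductase, by 0.54 at 313 mg/kg-d (FDR = 0.0015). Hacd3 at 313 mg/kg-d and Hacd2 at 427 mg/kg-d no longer passed under median-ratio scaling. Of the 3 electron donors Cyb5b alone passed, with 0.43 and 0.37 (FDR = 0.0037 and 0.01), and not under median-ratio scaling. In FFPE none of the listed genes of either group passed.

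Fatty acid synthesis, which supplies palmitate, had 1 of 7 genes as DEGs in FROZ at 313 mg/kg-d and 3 of 7 at 427 mg/kg-d, all increased. Increased DEGs at these doses made up 1.43 and 2.26% of all genes in FROZ and 0.584 and 1.23% in FFPE. Me1, the malic enzyme that yields NADPH, rose by 1.71 and 2.08 (FDR = 2.5e-07 and 3.5e-09), and by 1.59 and 2.02 in FFPE (FDR = 0.017 and 0.00063). Fasn, the synthase itself, was a DEG at 427 mg/kg-d with 1.46 in FROZ (FDR = 1.3e-06) and 1.37 in FFPE (FDR = 0.0099). Acaca rose by 1.04 at 427 mg/kg-d in FROZ (FDR = 5.2e-07) and fell under the fold threshold under median-ratio scaling (0.90). Acly, Slc25a1 and Thrsp did not pass. Of the 8 regulators, Srebf1, which encodes SREBP-1, was the only DEG, with 1.73 at 427 mg/kg-d in FROZ (FDR = 1.9e-05, 6 of 6 libraries above all controls), where 2.26% of all genes were increased DEGs and 11.4% lay wholly above the controls. Under median-ratio scaling its increase at 313 mg/kg-d, 0.82 as deposited, no longer passed an FDR of 0.05. At that FDR alone, 3 of the 8 regulators increased in FROZ at each upper dose, beside 20.5 and 22.7% of all genes. They were Srebf1 and Insig2 at both doses, with Scap at 313 mg/kg-d and Ppara at 427 mg/kg-d. Under median-ratio scaling only Insig2 still passed at 313 mg/kg-d and only Srebf1 at 427 mg/kg-d. In FFPE the change of Srebf1 at 427 mg/kg-d was 1.27 (FDR = 0.83).

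In the peroxisomal step that shortens the precursor of docosahexaenoic acid, the thiolases Acaa1a and Acaa1b were DEGs in FROZ at both upper doses. Acaa1a rose by 2.47 and 2.63 and Acaa1b by 2.63 and 2.97 on the log2 scale. Both were also DEGs in FFPE at these doses. Of all genes, 1.43 and 2.26% were increased DEGs there in FROZ, and 0.584 and 1.23% in FFPE. Scp2 did not pass as deposited, and under median-ratio scaling it passed as a decrease at 427 mg/kg-d in both tables (-0.35 in FROZ and -0.56 in FFPE, FDR = 0.019 and 0.0277). Hsd17b4 was a DEG in FFPE at 427 mg/kg-d alone (1.13, FDR = 0.0017), with 0.86 in FROZ (FDR = 6.1e-06). Among 5 users of the products, Lpcat3, which places polyunsaturated chains into phospholipids, rose by 1.07 and 1.34 in FROZ (FDR = 6.9e-06 and 1e-07), and Gpam, which starts glycerolipid synthesis, was a DEG at 427 mg/kg-d (1.34, FDR = 6.3e-07). Dgat1, which completes triglyceride synthesis, changed by 0.54 and 0.44 (FDR = 0.0013 and 0.0056). Dgat2, which catalyses the same reaction, went the other way, decreasing by 0.61 at 313 mg/kg-d (FDR = 0.0013), with -0.30 at 427 mg/kg-d (FDR = 0.0922), and under median-ratio scaling it passed at both doses (-0.75 and -0.44, FDR = 9.9e-05 and 0.0103). Soat2 did not pass. With the same scaling Lpcat3 fell under the fold threshold at 313 mg/kg-d (0.93). No gene of any of these lists passed at 198 mg/kg-d in either table.

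**Figure D4:**
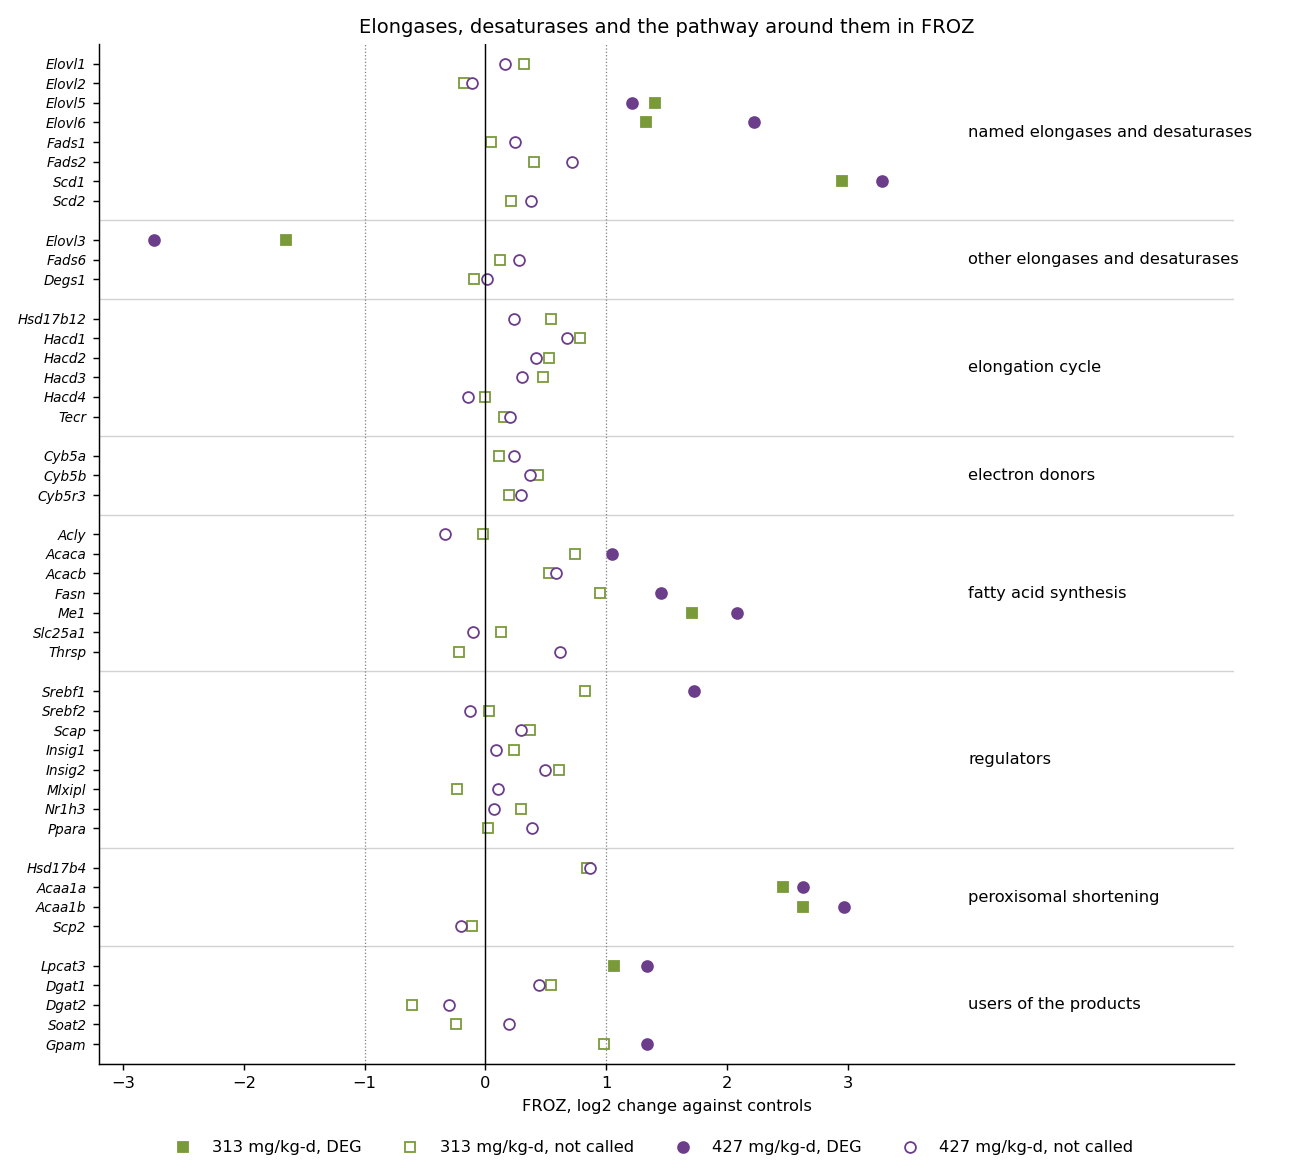
Log2 change against controls in FROZ at 313 mg/kg-d (squares) and 427 mg/kg-d (circles) of the members and of 7 further gene lists of the pathway; filled symbols are DEGs and dotted lines mark a log2 change of 1 in either direction. Scd1 (2.96 and 3.28) lies farthest to the right and Elovl3 (-1.65 and -2.75) farthest to the left.

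Markers of other cell types were summed in CPM for each library. The hepatocyte list had a median of 43382 CPM in FFPE controls (36846 to 49408) and 27369 CPM at 427 mg/kg-d (25398 to 30513), and of 25120 (21513 to 27216) and 20807 CPM (18837 to 23134) in FROZ, with 5 of 6 and 6 of 6 genes listed. Erythroid markers, 4 of 4 listed in FROZ, had medians of 56.0 CPM (40.9 to 78.7) in controls and 32.3 CPM (23.1 to 49.7) at 427 mg/kg-d. The endothelial list, 5 of 5 listed, had 126 (118 to 138) and 103 CPM (92.3 to 112), and the Kupffer cell list, 6 of 7 listed, 102.5 (76.3 to 115) and 75.5 CPM (64.0 to 82.8). Between these groups in FROZ the endothelial list did not overlap, whereas the hepatocyte, erythroid and Kupffer cell lists did. The stellate cell (5 of 6), cholangiocyte (3 of 5) and lymphocyte (3 of 5) lists also overlapped, and no lymphocyte gene is listed in FFPE. At 313 mg/kg-d in FROZ the endothelial (93.7 to 117 CPM) and erythroid (19.3 to 36.5 CPM) lists lay wholly below controls. In FFPE the hepatocyte list did so at 427 mg/kg-d. Single genes wholly below controls made up 2.39 and 3.27% of all genes in FROZ at the upper doses. In FFPE at 427 mg/kg-d they made up 1.54%. Of the adipocyte list, the other cell type with high Scd1, only Fabp4 was listed, at 19.9 to 35.0 CPM in FROZ controls, 16.9 to 38.5 CPM at 427 mg/kg-d and up to 156 CPM in 1 library at 198 mg/kg-d, and the defining Adipoq, Plin1, Lep and Cfd were not listed. The part of these lists in the members' changes was not tested.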

How the data were processed

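The deposited values are log2(CPM + 1), in 1 table per preservation with 24 libraries each. The authors aligned TempO-Seq reads to mm10 with STAR 2.6 in Partek Flow, estimated counts, added an offset of 0.0001 before filtering, dropped genes whose geometric mean did not exceed 1, scaled to CPM and added an offset of 1 before taking log2, separately per table. Values of different tables are therefore on separate scales. Low values were whole multiples of 1 read (within 0.1 read) for 96.5 to 97.5% in FROZ and 85.7 to 95.8% in FFPE. Count models were not used, since the deposited unit is log2.

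Each dose was compared with controls by limma 3.58.1 (trended prior, R 4.3.3) over the 24 libraries of a table, with Benjamini-Hochberg FDR over all its genes. Libraries of a group are separate mice. FFPE minus FROZ was tested on differences within a mouse, since both libraries come from the same animal by the labels. Over 4815 genes the median correlation of deviations was 0.128 with the own animal and -0.0232 with others of the dose, and 21 of 24 libraries correlated best with their own. The fits were also run on simulated normal values with the same SD of a gene at every dose. That setting differs from the spread of Scd1 and Elovl6 in FFPE, and no result here rests on it. Correlations used scipy 1.17.1. Gene positions came from GENCODE M21 and promoters from RefSeq.

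Named are the 9 members, pathway genes called in either table with up to 4 others per list, and the 3 genes most alike to each member called in FROZ. Members and lists were chosen with earlier results of these data known. Alternatives were another offset, median-ratio scaling, an expression filter, array weights, no trend, 12 libraries only, no replicate block and leaving out each mouse. Protein and probe sequences were not used here. A single gene on these lists is left out and not reported here.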

Additional observations from a re-analysis of the deposited data

Results flagged for a closer look

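In 60 groups of 6 libraries (a gene, a table and a dose each), 6 had a highest or lowest library whose gap to the next was over Dixon's 95% critical value, and chance alone marks about 1 in 20 groups. In FROZ, control mouse 8 had the lowest Elovl5 level (6.09, next 6.87), mouse 76 at 313 mg/kg-d the highest Elovl6 level (7.41, next 6.88), mouse 97 at 427 mg/kg-d the lowest Fads1 level (7.53, next 8.00) and mouse 98 at 427 mg/kg-d the highest Scd2 level (2.20, next 1.66). In FFPE, mouse 73 at 313 mg/kg-d had the highest Elovl6 level (8.72, next 7.45) and mouse 53 at 198 mg/kg-d the lowest Fads1 level (6.27, next 7.32). Of these, mouse 73 is also among the FFPE libraries with the most genes at 0.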

How the results depend on the processing

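Of 1797 values of single members under an alternative, 1778 kept their direction or stayed uncalled, 14 gained a call, 5 lost one and 0 reversed. The cause of these shifts was not tested. In FFPE, array quality weights called 4 members instead of 1 at 313 mg/kg-d, and moved the genes called from 53 to 27 between 198 and 313 mg/kg-d, from 121 to 281 at 427 mg/kg-d and from 18 to 33 between 313 and 427 mg/kg-d. A prior without trend gave 35 genes at 313 mg/kg-d in place of 54, 33 and 5 for those 2 steps, and 86 for the slope in place of 145, and Elovl6 at 427 mg/kg-d then missed the threshold (FDR = 0.067). The 12 libraries compared alone gave 232 genes at 427 mg/kg-d. Genes of at least 10 CPM gave 7 calls at 198 mg/kg-d in FFPE in place of 4, and 7 in FROZ in place of 12. An offset of 0.1 CPM gave 22 genes in FROZ at 198 mg/kg-d and 467 in place of 261 at 313 mg/kg-d. The slope of Elovl2 in FROZ passed under median-ratio scaling (-0.07, FDR = 0.0393), and that of Fads1 without control mouse 3 or mouse 97 (0.07 each, FDR = 0.0383).

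Without the replicate block, which pairs the FROZ and FFPE libraries of a mouse, 1, 1 and 2 genes differed in response at 198, 313 and 427 mg/kg-d in place of 2, 0 and 2, and 0 members did. For Elovl2 at 198 mg/kg-d the FDR was then 0.213.

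Leaving out each mouse in turn, FROZ calls ranged from 7 to 15 genes and 0 to 1 member at 198 mg/kg-d, 242 to 287 genes at 313 mg/kg-d, 373 to 405 at 427 mg/kg-d, 135 to 182 genes and 2 to 3 members between 198 and 313 mg/kg-d, 47 to 65 genes between 313 and 427 mg/kg-d, and 3310 to 3667 genes and 4 to 5 members for the slope. In FFPE they ranged from 2 to 34 genes at 198 mg/kg-d, 38 to 102 genes and 1 to 2 members at 313 mg/kg-d, 94 to 118 genes and 2 to 3 members at 427 mg/kg-d, 38 to 71 and 9 to 38 genes for those steps, and 112 to 169 genes for the slope. Of the members, Scd2 had the fewest reads in FROZ, 5 to 32 per library.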
